A study of Homo sapiens with 6 samples.

Results

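Atr, Chek1 and Timeless, 3 genes of the replication stress response, were followed through a paired-guide CRISPR knockout screen of 459 genes. They were selected by gene name: every construct with a guide named for one of the 3 genes at either position was kept, which gave 12 of 1826 gene guides and 11081 of 863546 constructs. Of these constructs, 24 joined a guide of one of the genes with a guide of another and were counted apart from the rest. The names are written in the mouse style, as the tables give them, but the cells are human. The human genes lie on chromosome 3 from 142449235 to 142578733 (ATR), chromosome 11 from 125625136 to 125681124 (CHEK1) and chromosome 12 from 56416363 to 56449426 (TIMELESS) in RefSeq's annotation of GRCh38.p14.

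All samples were eHAP iCas9-cl#6 cells, 1 clone of eHAP, a human haploid line derived from HAP1 cells, that is p53 null and makes Cas9 when doxycycline is added. The library entered the cells at a multiplicity of infection of 0.15. The 3 groups were an irradiated population collected at day 15 after 10 population doublings and repeated X-ray treatments of 0.6 Gy each, a population collected at day 14 after 12 doublings of standard growth, and a population collected at day 0. The irradiated and day 14 groups thus differ in doublings and day as well, and irradiation cannot be told apart from these in their comparison. The labels give the X-ray dose as one lethal to 20% of cells in one field and to 30% in another. Each group had 2 replicates, which nothing in the labels describes as separate cultures, so p-values measure only the spread between these libraries.

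ATR is the kinase that is recruited to single-stranded DNA at stalled replication forks, and CHK1, the product of Chek1, is the kinase it activates to hold back origin firing and entry into mitosis. TIMELESS forms the fork protection complex with TIPIN, travels with the replisome and helps pass the ATR signal to CHK1. ATR and CHK1 are needed for the growth of most proliferating mammalian cells. In a screen of this kind, reads of a construct measure how common its carrier cells are, and a knockout that slows growth is read less often at the later time than at day 0.

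Each construct carried 2 guides, with guides 1 and 2 of a gene at position 1 and guides 3 and 4 at position 2. Libraries held between 61185707 and 86587125 reads. Irradiated replicate 2 had no reads for 49.4% of constructs and day 14 replicate 1 for 54.1%, against 1.93% to 7.62% in the other 4 libraries. A value given with all libraries only can still rest on these 2 incomplete libraries. For many results a value from a fit without them is given. That fit keeps 1 day 14 and 1 irradiated library, so its spread comes from the 2 day 0 libraries alone and each lone library is assumed to vary as they do. At position 2, 250 of 927 guides stood above a log2 change of 0.22 at day 14 against day 0, compared with 6 of 922 at position 1. None of the 12 guides of the 3 genes was among them, and the remaining position 2 guides had a median change of -0.06. The group rested on 1 day 0 library, since 269 position 2 guides passed that level against day 0 replicate 1 alone and 9 against replicate 2 alone. The 61 non-targeting guides gave the single-knockout measure, in which a gene's guide is paired with a guide that has no target.

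The guides of the 3 genes entered the screen at very different levels. A guide's level is its reads summed over all partners, given as CPM, which scales reads to the total of the guide's position and library, and at day 0 the median guide had 946 CPM at position 1 and 860 CPM at position 2. Atr guides 1 and 2 were rare, at 397 and 312 CPM, which placed them 841st and 878th of 922 from the top. Timeless guide 1 was among the most abundant at 3113 CPM, rank 14. Chek1 guides lay near the middle, between 575 and 1177 CPM.

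The missing constructs followed these levels. In day 14 replicate 1, 82.0% of Atr guide 2 constructs and 77.1% of Atr guide 1 constructs had no reads, against 19.4% for Timeless guide 1. Over all 1849 guides, the share of missing constructs and the day 0 level had a Spearman correlation of -0.98 in that library and of -0.97 in irradiated replicate 2. This is a description over guides that share the same libraries. Summed by gene, constructs without reads made up 60.2% for Atr, 56.2% for Chek1 and 49.0% for Timeless in day 14 replicate 1, and 54.2%, 51.0% and 45.2% in irradiated replicate 2.

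Atr, the apex kinase of the response, showed little change as a gene, while 1 of its 4 guides stood apart. Summed over all partners, Atr constructs had 1846 and 1806 CPM in the irradiated libraries, 1656 and 1709 CPM in the day 14 libraries, and 1759 and 1773 CPM in the day 0 libraries, after TMM scaling between libraries. Both day 14 libraries were the lowest and both irradiated libraries the highest, with no overlap. The log2 change was -0.07 at day 14 against day 0 (95% interval -0.19 to 0.05), 0.05 in irradiated cells against day 0 (-0.07 to 0.17) and 0.12 in irradiated cells against day 14 (0.00 to 0.24). None passed edgeR's quasi-likelihood test after Benjamini-Hochberg adjustment over 459 genes, with adjusted p of 0.574, 0.664 and 0.996, and no gene of the screen did (0% called in each comparison). At an unadjusted p under 0.05 there were 17, 17 and 11 of 459 genes, and DESeq2 called 2, 2 and 1. As a percentage, the interval at day 14 runs from -12.2% to 3.43%.

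Atr guide 2, at position 1, had 322 and 288 CPM in the irradiated libraries, 190 and 207 CPM in the day 14 libraries, and 326 and 299 CPM in the day 0 libraries. Both day 14 libraries were low, and the irradiated and day 0 libraries overlapped. Its log2 change was -0.65 (SE 0.11, 95% interval -0.93 to -0.37) at day 14 against day 0, a difference of -36.3%, and 0.62 (SE 0.11, 0.34 to 0.89) in irradiated cells against day 14. In irradiated cells against day 0 it was -0.03 (SE 0.11). By change at day 14 it was the 2nd lowest of 1849 guides, and in irradiated cells against day 14 its change was among the highest, 1846th from the bottom.

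Whether this guide passed depended on the test. edgeR's unadjusted p was 0.0015 at day 14 against day 0 and 0.0020 in irradiated cells against day 14, and the adjusted p over 1849 guides was 0.562 and 0.318. With all guides in one fit, 0% of guides were called in any of the 3 comparisons, and 71, 55 and 83 had an unadjusted p under 0.05. DESeq2 gave the guide adjusted p of 5.1e-05 and 9.69e-05, in runs that called 0.973% and 1.08% of guides. edgeR fitted to each position apart, an alternative added after the data were seen, gave 0.0846 and 0.0494, with 0.108% and 0.541% called. In irradiated cells against day 0 neither of these called any of the 12 guides, with 1.46% (DESeq2) and 0.0541% (each position apart) of all guides called. The change at day 14 stayed between -0.71 and -0.59 when each library was left out in turn, and edgeR called it without day 0 replicate 2 (adjusted p 0.00377), in a fit that called 16.9% of guides. It was -0.59 without both incomplete libraries and not called (adjusted p 0.887).

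The single constructs of the guide were low in the complete day 14 library. Their reads are part of the guide's sum there, so this is not separate support for the low sum. The incomplete libraries, where most of the constructs had no reads, could not show a difference by construct. Of its constructs, 309 had at least 20 reads in each day 0 library, and in day 14 replicate 2, the complete day 14 library, 76.7% of them lay below that library's median change. Their median log2 change against day 0 was -0.61 there, 3rd lowest of 921 guides. In irradiated replicate 1, the complete irradiated library, 51.1% lay below the median and the median change was -0.03, rank 423 of 921. In irradiated replicate 2, where 65.0% of these constructs had no reads, 72.8% lay below the median and the guide ranked 102nd lowest. In day 14 replicate 1, where 73.1% had no reads, 57.0% lay below the median and it ranked 356th. With most constructs unread, the shares and ranks in these incomplete libraries cannot show or refute a difference. The guide's sums over all partners in the incomplete libraries were 190 CPM at day 14 and 288 CPM in irradiated cells. The single constructs share their guide and their library and are not replicates.

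The other 3 Atr guides lay closer to their day 0 levels at day 14, and the difference between guides was not tested. Guide 1, also rare and at position 1, had 405 and 374 CPM in irradiated, 346 and 374 CPM in day 14 and 388 and 406 CPM in day 0 libraries, a log2 change of -0.14 (95% interval -0.37 to 0.09) at day 14 against day 0. Guide 3 had 1946 and 1955 CPM in irradiated, 1980 and 1963 CPM in day 14 and 1871 and 1946 CPM in day 0 libraries, a change of 0.05 (-0.07 to 0.16). Guide 4 had 917 and 928 CPM in irradiated libraries, above its 746 and 795 CPM at day 14 and its 785 and 821 CPM at day 0. For guide 4 the change in irradiated cells was 0.26 (0.10 to 0.42) against day 14 and 0.20 (0.04 to 0.36) against day 0, with edgeR adjusted p of 0.757 and 0.811. DESeq2 called the first of these (adjusted p 0.0271) and not the second (0.676).

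Taken by position, Atr sums at position 1 alone, the sum of guides 1 and 2, changed by -0.35 at day 14 against day 0 and by 0.31 in irradiated cells against day 14. edgeR called both, with adjusted p of 0.0402 and 0.0370, in fits that called 0.871% and 2.18% of genes. At position 2, guides 3 and 4 together were at 0.02 and 0.07, and neither was called. The comparisons of irradiated cells with day 14 and of day 14 with day 0 share the day 14 libraries, so a low value there enters both.

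Chek1, the effector kinase that ATR phosphorylates, showed no detectable change over all partners. Its constructs had 1908 and 1817 CPM in irradiated, 1873 and 1933 CPM in day 14 and 1943 and 1870 CPM in day 0 libraries, and all 3 groups overlapped. The log2 change was -0.0025 (95% interval -0.13 to 0.13) at day 14 against day 0, -0.03 (-0.16 to 0.09) in irradiated cells against day 0 and -0.03 (-0.16 to 0.10) against day 14, with edgeR adjusted p of 0.987, 0.788 and 0.996. As a percentage, the interval at day 14 runs from -8.62% to 9.05%.

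The Chek1 guides split by position. Guide 1 had 1232 and 1180 CPM in irradiated, 1190 and 1297 CPM in day 14 and 1179 and 1176 CPM in day 0 libraries, and guide 2 had 1076 and 1085, 1178 and 1081, and 1089 and 1072 CPM. Guide 3, at position 2, had 815 and 777 CPM in irradiated, 800 and 832 CPM in day 14 and 931 and 841 CPM in day 0 libraries, so both later groups lay below day 0. Guide 4 had 579 and 502 CPM in irradiated, 501 and 551 CPM in day 14 and 599 and 551 CPM in day 0 libraries, with overlap. At day 14 against day 0 the log2 change of the position 1 guides was 0.08 and 0.06 and that of the position 2 guides -0.12 and -0.13, each with an interval that holds 0. The position 2 guides outside the upper group had a median of -0.06, which is the level to set the last 2 against. Against day 0 replicate 1 alone guides 3 and 4 were both at -0.19 in the mean day 14 level, and against replicate 2 alone at -0.04 and -0.07.

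Paired with non-targeting guides, Chek1 was lower at day 14 in one library only. Single-knockout values are reads per 1000 reads of constructs in which neither guide has a target, and Chek1 had 153 and 107 in the irradiated libraries, 72.6 and 160 in the day 14 libraries, and 170 and 156 in the day 0 libraries. The low value at day 14 belonged to replicate 1, the library with most missing constructs, and replicate 2 lay within the day 0 values. The log2 change was -0.49 (SE 0.30, 95% interval -1.14 to 0.17), the 2nd lowest of 459 genes, with an edgeR adjusted p of 0.821. edgeR and DESeq2 called 0% of genes, and edgeR had 17 at an unadjusted p under 0.05. It was -0.03 without day 14 replicate 1 and -1.17 without replicate 2, where edgeR called it (adjusted p 0.0142) in a fit with 1 day 14 library that called 6.75% of genes. In irradiated cells the change was -0.33 (-0.98 to 0.32) against day 0 and 0.16 (-0.50 to 0.81) against day 14, and both tools called 0% of genes in either comparison, with 13 and 12 at an unadjusted p under 0.05. They were -0.096 and -0.069 without both incomplete libraries, the second of the opposite sign.

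By guide, the single-knockout values of Chek1 guide 1 were 67.3 and 30.4 in irradiated, 15.96 and 62.1 in day 14, and 60.2 and 58.6 in day 0 libraries. Both low values came from the incomplete libraries. Guide 3 had 18.9 and 12.1 in irradiated, 11.0 and 25.8 in day 14, and 35.7 and 26.6 in day 0 libraries, below day 0 in all 4 later libraries. Guide 2 had 53.5 and 53.6 in irradiated, 33.5 and 55.1 in day 14, and 55.6 and 52.1 in day 0 libraries. Guide 4 had 12.9 and 10.5, 12.1 and 17.0, and 18.3 and 18.9 in the same order and was also lower in all 4 later libraries. The share of all guides that were so on this measure was not computed, and these 4 libraries include both incomplete ones.

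Atr and Timeless, measured the same way, had smaller changes from day 0 than Chek1 with all libraries in the fit. Without both incomplete libraries the change at day 14 was -0.03 for Chek1, -0.07 for Atr and 0.08 for Timeless. In irradiated cells against day 0 it was then -0.096, -0.05 and -0.06. Atr single knockouts had 119 and 128 in irradiated, 108 and 117 in day 14 and 125 and 121 in day 0 libraries, and both day 14 libraries were the lowest. Its log2 change was -0.13 (95% interval -0.54 to 0.28) at day 14 against day 0, 0.0002 (-0.41 to 0.41) in irradiated cells against day 0 and 0.13 (-0.28 to 0.54) against day 14. These were -0.07, -0.05 and 0.02 without both incomplete libraries. Atr guide 2 alone had 13.7 and 21.3 in irradiated, 10.3 and 8.14 in day 14 and 17.1 and 12.9 in day 0 libraries. These constructs are part of the sums over all partners, so the 2 measures are not independent.

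Timeless single knockouts had 240 and 212 in irradiated, 309 and 265 in day 14 and 247 and 255 in day 0 libraries. The irradiated libraries were the lowest and the day 14 libraries the highest, without overlap. The change was -0.34 (SE 0.16, 95% interval -0.68 to -0.0027) in irradiated cells against day 14, with an unadjusted p of 0.048 and an edgeR adjusted p of 0.965. In this comparison the median over all 459 genes was -0.08 and 64.3% of genes lay below 0, so 0 is not the level of a typical gene. The Timeless change was 0.19 (-0.15 to 0.53) at day 14 and -0.15 (-0.49 to 0.19) in irradiated cells, each against day 0. Without both incomplete libraries the difference between irradiated cells and day 14 was -0.14, and those against day 0 were 0.08 and -0.06.

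Non-overlap of this kind was common in these libraries and does not single the genes out. Of the 3 single knockouts, 1 (Atr) was lower and 1 (Timeless) higher in both day 14 than in both day 0 libraries, against 12.2% and 18.3% of all 459 genes. In irradiated cells 2 (Chek1 and Timeless) were lower than at day 0, where 19.6% of genes were, and against day 14 Timeless was lower and Atr higher, where 17.0% and 8.06% of genes were. Over all partners Atr was lower and Timeless higher at day 14 than at day 0, against 20.3% and 20% of genes, and Atr was higher in irradiated cells than at day 0, against 20.5%. Irradiated cells against day 14 had Timeless lower and Atr higher, against 17.2% and 16.8% of genes.

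Timeless, the fork protection component, was the most abundant of the 3 genes and the one with the narrowest intervals. Over all partners it had 3010 and 2865 CPM in irradiated, 3024 and 3126 CPM in day 14 and 2980 and 3004 CPM in day 0 libraries. Both day 14 libraries lay above day 0, and the irradiated libraries lay on either side of it. The log2 change was 0.04 (95% interval -0.06 to 0.14) at day 14 against day 0, -0.03 (-0.13 to 0.08) in irradiated cells against day 0 and -0.07 (-0.17 to 0.04) against day 14. edgeR gave adjusted p of 0.664, 0.796 and 0.996.

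Timeless guide 1 had the most reads of the 4, with 3126 and 2991 CPM in irradiated, 3311 and 3294 CPM in day 14 and 3109 and 3117 CPM in day 0 libraries. Its change was 0.09 (-0.02 to 0.19) at day 14 against day 0 and -0.11 (-0.22 to -0.0048) in irradiated cells against day 14, with an edgeR adjusted p of 0.9995 for the second. Guide 3, a rare guide with 385 CPM at day 0, had 356 and 314 CPM in irradiated, 273 and 380 CPM in day 14 and 400 and 370 CPM in day 0 libraries. The lowest of these values was from day 14 replicate 1, in which 79.5% of its constructs had no reads, and its change at day 14 was -0.24 (-0.68 to 0.20), or -0.02 without both incomplete libraries. Guides 2 and 4 lay between 931 and 1060 CPM and between 1315 and 1358 CPM in the 6 libraries, with changes between -0.05 and 0.02 in all 3 comparisons.

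Among the 12 guides, 3 were lower (Atr guides 1 and 2 and Chek1 guide 3) and 3 higher (Atr guide 3, Chek1 guide 1 and Timeless guide 1) in both day 14 than in both day 0 libraries. The same held for 21.5% and 19.4% of all 1849 guides. In irradiated cells against day 0, 2 were lower (Chek1 guide 3 and Timeless guide 3) and 3 higher (Atr guides 3 and 4 and Chek1 guide 1), against 18.4% of guides in each direction. Against day 14, 2 were lower (Atr guide 3 and Timeless guide 1) and 2 higher (Atr guides 2 and 4), against 16.1% and 15.0%.

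A construct with both of its guides against one gene cuts that gene at 2 sites, and each gene had only 4 such constructs. For such constructs the share of all genes whose groups do not overlap was not computed. Chek1 had 138 and 754 reads in the irradiated libraries, 85 and 105 in the day 14 libraries and 312 and 265 in the day 0 libraries. Per 1000 reads of non-targeting pairs, these were 3.08 and 14.5, 2.51 and 2.76, and 6.02 and 4.89, so all later libraries except irradiated replicate 2 lay below day 0. In that replicate, 748 of the 754 reads came from the construct of guides 2 and 3, which had 23 reads in irradiated replicate 1. Construct by construct, guides 1 and 4 had 25 and 0 reads in irradiated, 0 and 13 in day 14 and 67 and 63 in day 0 libraries, and guides 2 and 4 had 51 and 0, 0 and 47, and 80 and 97.

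The log2 change of these Chek1 constructs was -1.05 (SE 0.87, 95% interval -3.17 to 1.07) at day 14 against day 0 and 0.69 (-1.41 to 2.79) in irradiated cells against day 0, and 1.74 in irradiated cells against day 14. Without both incomplete libraries these were -0.98, -0.82 and 0.16, so the second changed direction. edgeR gave adjusted p of 0.993 and 0.997 for the changes against day 0, and edgeR and DESeq2 called 0% of 457 genes in each of the 3 comparisons, where 2, 1 and 1 had an unadjusted p under 0.05 by edgeR. In simulated counts the same test recovered 0% of 2-fold changes, so a change of that size was not detectable with these constructs.

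Atr constructs with both guides against the gene had 194 and 627 reads in irradiated, 33 and 97 in day 14 and 170 and 191 in day 0 libraries. Scaled as above they were 4.33 and 12.1, 0.98 and 2.55, and 3.28 and 3.53. All 33 reads of day 14 replicate 1 came from 1 construct, guides 1 and 3, and 463 of the 627 reads of irradiated replicate 2 came from guides 2 and 3. The change was -0.95 (95% interval -3.25 to 1.36) at day 14 and 1.27 (-1.04 to 3.58) in irradiated cells against day 0, and 2.22 (-0.17 to 4.60) in irradiated cells against day 14, with edgeR adjusted p of 0.993, 0.997 and 0.9997. The values were -0.42, 0.35 and 0.76 without both incomplete libraries.

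Timeless constructs of this kind were level or higher. They had 735 and 740 reads in irradiated, 616 and 633 in day 14 and 662 and 646 in day 0 libraries, which is 16.4 and 14.2, 18.2 and 16.6, and 12.8 and 11.9 after scaling. All 4 later libraries lay above both day 0 libraries, and the share of all genes that do so with such constructs was not computed. The change was 0.50 (95% interval -0.33 to 1.32) at day 14 and 0.31 (-0.51 to 1.14) in irradiated cells against day 0, and -0.18 (-1.01 to 0.64) in irradiated cells against day 14. Without both incomplete libraries these were 0.43, 0.41 and -0.02. The construct of guides 1 and 3 gave 522 of the 616 reads in day 14 replicate 1, where guides 1 and 4 gave 38 reads, against 399 of guides 1 and 4 in replicate 2.

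Constructs that join 2 of the genes ask whether losing both differs from the sum of the 2 losses. Atr with Chek1 had 559 and 1309 reads in irradiated, 51 and 527 in day 14 and 688 and 622 in day 0 libraries over 8 constructs. Of the 1309 reads, 1147 came from Chek1 guide 2 with Atr guide 3, a construct with 148 reads in irradiated replicate 1, 2 and 162 in the day 14 and 190 and 150 in the day 0 libraries. Scaled to non-targeting pairs, the values were 12.5 and 25.2 in irradiated, 1.51 and 13.8 in day 14 and 13.3 and 11.5 in day 0 libraries, so the complete libraries of the later groups lay at or near the day 0 values.

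Atr with Timeless had 20.3 and 13.2 in irradiated, 9.72 and 22.2 in day 14 and 18.2 and 21.0 in day 0 libraries on the same scale. Chek1 with Timeless had 14.1 and 3.78 in irradiated, 0.03 and 14.1 in day 14 and 16.1 and 12.6 in day 0 libraries. Here day 14 replicate 1 held 1 read in all, on Chek1 guide 1 with Timeless guide 4, a construct with 176 and 75 reads in irradiated libraries, 208 in day 14 replicate 2 and 270 and 200 at day 0. The leading construct of the Atr and Timeless pair, Timeless guide 1 with Atr guide 3, had 351 and 434 reads in irradiated, 199 and 400 in day 14 and 499 and 505 in day 0 libraries. Scaled, these were 7.83 and 8.36, 5.88 and 10.5, and 9.62 and 9.32, below day 0 in all later libraries except day 14 replicate 2.

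The interaction is the log2 change of a gene pair minus the sum of both genes' changes. At day 14 against day 0 it was -1.04 (95% interval -3.27 to 1.19) for Atr with Chek1, -0.72 (-1.87 to 0.44) for Atr with Timeless and -1.53 (-5.60 to 2.53) for Chek1 with Timeless. In irradiated cells against day 0 it was 0.67, -0.35 and -0.77, and against day 14 it was 1.72, 0.37 and 0.77. These values rest on the incomplete libraries. Without them the interactions in the same order were -0.22, -0.27 and -0.54 at day 14, -0.18, -0.20 and -0.20 in irradiated cells against day 0 and 0.05, 0.07 and 0.33 against day 14, so Atr with Chek1 changed direction in irradiated cells against day 0. Leaving out 1 library at a time gave ranges at day 14 of -3.17 to -0.22, -1.37 to -0.27 and -9.17 to -0.54, each extreme without 1 of the day 14 libraries. Against day 14, irradiated cells ranged over 0.87 to 3.84, -0.08 to 1.02 and -0.23 to 8.41. None passed edgeR's test, and 0% of 105111 gene pairs were called in any comparison, with 1608, 289 and 2361 at an unadjusted p under 0.05. Without day 14 replicate 2, which leaves for day 14 the library with 1 read of the pair, edgeR called Chek1 with Timeless at day 14 (adjusted p 0.0418), in a fit that called 3.91% of pairs. With all libraries the median over all pairs was -0.46, -0.10 and 0.36 in the 3 comparisons, and this is the level to set a single pair against. A fit on fewer libraries has its own median, which is not given here. Its values cannot be set against these levels or read against 0. Simulated 16-fold interactions were recovered in 47% of cases and 4-fold ones in 2%.

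Over all 458 partners of each gene, the median interaction at day 14 against day 0 was -0.45 for Atr, -0.48 for Chek1 and -0.50 for Timeless, close to the -0.46 of all pairs. Of 34 partners listed for their role in replication stress or for a described interaction with loss of ATR or CHK1 activity, 0 passed with any of the 3 genes in any comparison. At an unadjusted p under 0.05, 2 of the 34 did so with Timeless and none with Atr or Chek1 at day 14 against day 0, and 2 with Chek1, 1 with Timeless and none with Atr in irradiated cells against day 14. In irradiated cells against day 0 there were none. Over all 458 partners the counts at day 14 against day 0 were 15 (3.28%) with Timeless, 4 with Atr and 4 with Chek1. In irradiated cells against day 14 they were 16 (3.49%) with Timeless, 10 (2.18%) with Chek1 and 0 with Atr. Irradiated cells against day 0 had 2 with Timeless, 1 with Atr and 1 with Chek1. The counts among listed partners are not read as a result about them.

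For each gene and comparison the listed partner of smallest p is given, with no call implied. Chek1 with Atm, the kinase of the response to double-strand breaks, had 14.7 and 26.1 in irradiated, 8.78 and 10.3 in day 14 and 13.9 and 15.0 in day 0 libraries on the scale of non-targeting pairs. Its interaction was 1.64 (0.32 to 2.95) in irradiated cells against day 14, and 0.82 without irradiated replicate 2, the higher of the irradiated libraries. Timeless with Rad1, a subunit of the 9-1-1 clamp, had 24.96 and 21.7 in irradiated, 14.1 and 18.1 in day 14 and 22.5 and 21.5 in day 0 libraries. Its interaction was -0.98 (-1.87 to -0.10) at day 14 against day 0 and 1.00 (0.12 to 1.88) in irradiated cells against day 14, or -0.75 and 0.72 without both incomplete libraries. With all libraries, the median over all pairs was -0.46 at day 14 against day 0 and 0.36 in irradiated cells against day 14. These levels do not apply to the values from fewer libraries.

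Atr with Cdc7, the kinase that fires replication origins, had 14.9 and 19.2 in irradiated, 13.7 and 14.6 in day 14 and 21.7 and 18.4 in day 0 libraries. The interaction at day 14 against day 0 was -0.86 (-1.82 to 0.09). Chek1 with Brca2, a homologous recombination protein, was at -1.18 (-2.52 to 0.16) in the same comparison and at -0.70 without both incomplete libraries. In irradiated cells against day 0, Atr with Fancd2 was at 0.97, Chek1 with Rad1 at -0.84 and Timeless with Clspn, the CHK1 adaptor claspin, at -0.69. Without irradiated replicate 2 these were -0.255, -0.44 and -0.26, so Atr with Fancd2 changed direction. That pair had 641 and 2185 reads in irradiated, 770 and 579 in day 14 and 754 and 822 in day 0 libraries. Atr with Slx4, a nuclease scaffold, was at 1.31 in irradiated cells against day 14. This was 0.27 without irradiated replicate 2 and 0.04 without both incomplete libraries. Scaled, it had 8.43 and 22.2 in irradiated, 5.79 and 9.27 in day 14 and 13.3 and 10.9 in day 0 libraries. The edgeR adjusted p was 0.796 for each of the 3 pairs named at day 14 against day 0. In irradiated cells it was 0.9997 for those set against day 0 and 0.932 for those set against day 14. Without both incomplete libraries edgeR called the 3 pairs at day 14 (adjusted p 0.0119, 0.0427 and 0.0116 for Atr with Cdc7, Chek1 with Brca2 and Timeless with Rad1), in a fit with 1 day 14 library that called 26.2% of all pairs.

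Other genes of the pathway gave no call. Of 35 listed genes of ATR activation, the fork protection complex, checkpoint targets and fork remodelling, 23 were in the screen, and 0 passed in single knockouts, over all partners or with both guides in any of the 3 comparisons by edgeR. At an unadjusted p under 0.05 there were 1, 1 and 1 over all partners, 0, 1 and 0 in single knockouts and none with both guides. Among all 459 genes of the screen there were 17, 17 and 11 over all partners and 17, 13 and 12 in single knockouts. The counts among the 23 are not read as a result about the pathway. TIPIN, the partner of TIMELESS, and WEE1 and CDC25A, targets or partners of CHK1, were not among the genes analysed here. Over all partners the 23 had a median log2 change of 0.01 at day 14, 0.01 in irradiated cells against day 0 and 0.0046 in irradiated cells against day 14, where all genes had 0.0068, -0.0031 and 0.0028. In single knockouts their medians were 0.11, -0.03 and -0.11, where all genes had 0.06, 0.01 and -0.08.

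Hus1, another subunit of the 9-1-1 clamp that helps activate ATR, was at -0.18 (95% interval -0.33 to -0.03) at day 14 and at -0.21 (-0.37 to -0.06) in irradiated cells, both against day 0 and over all partners, with edgeR adjusted p of 0.574 and 0.640. Without day 0 replicate 2, edgeR called it in both (adjusted p 0.0105 and 0.00449), in fits that called 39.2% and 36.4% of genes. In single knockouts it was at -0.26 (-0.64 to 0.12) and -0.53 (-0.91 to -0.15), and at -0.27 in irradiated cells against day 14. Without both incomplete libraries these single-knockout values were -0.13, -0.38 and -0.24. Topbp1, the protein that switches ATR on, was over all partners at -0.07 (-0.14 to 0.0041) at day 14 against day 0 and at 0.09 (0.02 to 0.16) in irradiated cells against day 14. Its single knockouts were at -0.28 and 0.25 in these comparisons, or -0.11 and 0.15 without both incomplete libraries.

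Further genes of smallest p over all partners were Wrnip1 (0.11) and Rad9a (0.05) at day 14, Etaa1 (0.09), Hus1b (-0.14) and Rpa3 (0.08) in irradiated cells against day 0, and Rpa3 (0.07), Rpa1 (0.04) and Rad9a (-0.04) against day 14. In single knockouts they included Wdhd1 (0.32) and Cdc7 (0.20) at day 14, Rpa1 (-0.21), Clspn (-0.26) and Wdhd1 (0.16) in irradiated cells against day 0, and Cdc7 (-0.24) against day 14. Without both incomplete libraries these single knockouts were, in the same order, at 0.06, -0.05, -0.11, 0.04, 0.06 and 0.01. The values are log2 changes, and none passed edgeR's test. With both guides against the gene, the listed genes of smallest p ranged at day 14 between -0.81 (Rpa1) and 0.51 (Etaa1), in irradiated cells against day 0 between -2.46 (Rad9b) and 1.45 (Wdhd1), and against day 14 between -0.49 (Topbp1) and 0.89 (Wdhd1, which was -0.19 without irradiated replicate 2). Leaving out each library in turn moved this Rad9b value over -10.26 to -1.46. Without both incomplete libraries the values with both guides were, in the same order, at -0.41, 0.26, -1.46, 0.37, -0.12 and 0.40.

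Genes with the most similar profile over the 6 libraries were found by the distance between centred log2 levels summed over all partners. For Atr these were Ppp4r2, Nsmce2 and Topbp1, at distances of 0.03, 0.04 and 0.04, where the median distance of Atr to all genes was 0.19. For Chek1 they included Fmn2 and Gins4 at 0.03 and 0.04, and for Timeless they were Rexo4, Hmga1 and Brcc3 at 0.03 each, with medians of 0.14 and 0.17. Chek1 was the 15th nearest gene to Timeless at a distance of 0.06, while Atr was 276th nearest to Timeless and 262nd to Chek1. The profiles share their 6 libraries and with them the differences between libraries.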

How the data were processed

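The authors deposited raw counts of reads, in whole numbers per construct, for 6 amplicon libraries of the guide locus. Pairs missing from a library's table were set to 0, and 0 pairs differed between each library's own table and the combined ones. The combined tables hold 2 more columns that match no sample, which were not used. HISAT2 2.1.0 and hg38 appear in the submitters' processing notes with no role, and a method for assigning reads to guides was not given in the sources used here. Guide sequences were not used here.

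Counts were summed per gene with non-targeting partners, per gene or guide over all partners, per gene with both guides against it, and per gene pair over both orders. Sums needed a mean of at least 20 reads (2000 for guides and genes over all partners). Libraries were scaled by reads of non-targeting pairs for the sums with non-targeting partners and for constructs with both guides against one gene, and by TMM for genes and guides over all partners, within each position for guides. For gene pairs the additive effects of both genes (iterated medians of log2 CPM, prior count 2, 25 iterations) entered as an offset. Testing used the quasi-likelihood method of edgeR 4.0.16 (limma 3.58.1, R 4.3.3), two-sided, on all 6 libraries in 1 fit, with Benjamini-Hochberg adjustment over all features and a threshold of 0.05. DESeq2 1.42.0, other scalings, filters, positions and replicate sets were alternatives.

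On simulated data for day 14 against day 0, the tests recovered 62% of 1.5-fold and 97% of 2-fold changes of single knockouts (459 genes), 99% of both over all partners (459 genes), 81% and 97% of guides (1849) and 0% of both for constructs with both guides against a gene (457 genes). The median 95% half-width on the log2 scale was 0.39, 0.14, 0.21 and 2.16 in these 4 measures and 1.38 for pairs. Each simulation changed 100 features by each size at once, where the main fits on the real libraries called none. Many true changes make the adjusted threshold easier to pass, so the recovered shares do not hold for a lone change. The simulation gave all libraries of a feature the same spread. It had no libraries with missing constructs and no shift of position 2 guides in 1 day 0 library. The recovered shares may therefore not hold for the real libraries. Reads are amplified molecules, so intervals from counts do not separate reads from cells. The members and lists were chosen with earlier results of these data known. Besides the 3 genes and their guides, the text names the listed pathway genes of smallest p (up to 4 per comparison), the listed partner of smallest p per gene and comparison, the 3 nearest profiles per gene, and the construct with most reads of each pair within the 3 genes; some items these rules select are not reported here. Alternatives added after seeing the data were a fit for each position, fits without both incomplete libraries, without robust estimation, with pairs of the 3 genes kept and with crossed replicate numbers.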

Additional observations from a re-analysis of the deposited data

How the results depend on the processing

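No gene, guide or pair passed the main test, so no call could be lost, but calls were added and values turned or moved, and the causes were not tested. DESeq2 called 2, 2 and 1 genes over all partners and 18, 27 and 20 guides in the order of day 14 against day 0, then irradiated cells against day 0, then against day 14. A fit for each position called 2, 1 and 10 guides, and genes at position 1 only gave 4, 2 and 10 calls over all partners. One TMM factor per library called 3 guides in irradiated against day 14, and limma-trend called 1 pair in each comparison with irradiated cells. Without both incomplete libraries, 1 gene with both guides was called in each comparison against day 0, 1 and 3 single knockouts in day 14 and irradiated against day 0, and 27497, 5800 and 631 pairs in the 3 comparisons.

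Leaving out each library in turn gave 0 to 180 genes and 0 to 312 guides over all partners at day 14 against day 0, and 0 to 167 genes and 0 to 307 guides in irradiated against day 0, the highest without day 0 replicate 2. It gave 0 to 31 single knockouts at day 14 against day 0, and 0 to 4109, 0 to 1 and 0 to 1940 pairs in the 3 comparisons, the highest without day 14 replicate 2 in all but irradiated against day 0 (without day 0 replicate 2).

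Same-numbered replicates did not pair. The correlation of their deviations was -0.67 between irradiated and day 14 libraries over genes and -0.58 over guides, and between -0.11 and 0.15 in the comparisons with day 0. With the replicate number as a block, 1 guide was called in irradiated against day 0 and 1 in irradiated against day 14, no other count changed, and Atr single knockouts in irradiated against day 0 turned to -0.0013. Crossed numbers, tried because that correlation was negative, as a block called 1 pair in each of the comparisons with irradiated cells and nothing else.

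Values turned sign as follows, from near 0 to as far as 0.97 (Atr with Fancd2) in size. With DESeq2, Timeless guide 4 was at -0.028 at day 14, and in irradiated against day 0 Atr guide 3 was at -0.0032 and Atr single knockouts at -0.0013. With no filter Chek1 guide 2 was at -0.0014 in irradiated against day 0, and with one TMM factor Timeless guide 4 was at -0.027 at day 14. Scaling by non-targeting pairs put Chek1 over all partners at 0.065 at day 14, and Rpa1 at -0.044 and Rpa3 at -0.0060 in irradiated against day 14. At position 1 only, Chek1 over all partners was at 0.068 at day 14, and in irradiated against day 0 Atr was at -0.032, Chek1 at 0.017, Hus1b at 0.0032 and Timeless single knockouts at 0.014. At position 2 only, Atr over all partners was at 0.019, Timeless at -0.041, Topbp1 at 0.059 and Timeless single knockouts at -0.14 at day 14. There, single knockouts of Atr were at -0.079 in irradiated against day 0, and those of Atr, Chek1 and Topbp1 at -0.039, -0.28 and -0.012 in irradiated against day 14.

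Without both incomplete libraries, Chek1 over all partners was at 0.020 and Cdc7 single knockouts at -0.049 at day 14. In irradiated against day 0, Chek1 and Etaa1 with both guides were at -0.82 and -0.077, Chek1 and Timeless over all partners at 0.0012 and 0.0088, single knockouts of Atr and Clspn at -0.053 and 0.045, and the interactions of Atr with Chek1 and with Fancd2 at -0.18 and -0.255. Atr guides 1 and 2 were there at 0.027 and 0.042, Chek1 guides 2 and 4 at -0.0082 and 0.017 and Timeless guides 1 and 2 at 0.0037 and 0.041. In irradiated against day 14, Timeless guide 3 was at -0.086 and single knockouts of Cdc7 and Chek1 at 0.012 and -0.069.

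Leaving out each library in turn gave these ranges for values that turned. At day 14 they were -0.040 to 0.069 and -0.0092 to 0.025 for Timeless guides 2 and 4, -0.030 to 0.027 for Chek1 over all partners, -0.049 to 0.41 for Cdc7 single knockouts and -1.04 to 0.074 for Rad1 with both guides. In irradiated against day 0, Atr guides 1 and 2 ranged over -0.084 to 0.027 and -0.12 to 0.042, Chek1 guides 2 and 4 over -0.015 to 0.011 and -0.195 to 0.017, and Timeless guides 1, 2 and 4 over -0.058 to 0.0037, -0.12 to 0.041 and -0.022 to 0.012. There, Chek1 and Timeless over all partners ranged over -0.069 to 0.0012 and -0.063 to 0.0088, single knockouts of Atr and Clspn over -0.053 to 0.051 and -0.64 to 0.045, Chek1 and Etaa1 with both guides over -0.82 to 1.41 and -0.077 to 1.11, and Atr with Chek1 and with Fancd2 over -0.18 to 1.20 and -0.255 to 1.62. In irradiated against day 14, Chek1 guides 1, 3 and 4 ranged over -0.105 to 0.019, -0.071 to 0.0080 and -0.068 to 0.15, Timeless guides 2 and 3 over -0.13 to 0.025 and -0.18 to 0.30, and Chek1 over all partners over -0.066 to 0.0037. There, single knockouts of Cdc7 and Chek1 ranged over -0.45 to 0.0064 and -0.305 to 0.835, Smarcal1 and Wdhd1 with both guides over -0.27 to 1.23 and -0.19 to 1.496, and the interactions of Timeless with Atr and with Chek1 over -0.083 to 1.02 and -0.23 to 8.41.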
